A study of Rattus norvegicus with 24 samples.

Results

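The miR-30 family 5p arms, rno-miR-30a-5p, rno-miR-30b-5p, rno-miR-30c-5p, rno-miR-30d-5p and rno-miR-30e-5p, were followed in rat brain after traumatic brain injury (TBI). They were the rows of the miRNA count tables named miR-30 with a letter from a to e and ending in 5p, 5 of the 728 miRNAs listed, and all 5 passed the filter on low counts in every comparison. The animals were adult Sprague-Dawley rats, 6 with lateral fluid-percussion injury (a brief pressure wave applied to the dura through a craniectomy) and 6 sham-operated controls. Small RNA libraries were made from perilesional cortex and from ipsilateral thalamus. Tissue was taken 3 months after surgery and each of the 12 rats gave 1 library per region, 24 in all. By the study's methods the rats were males, the TBI rats had been selected by imaging for a chronic inflammatory rim around the lesion, and controls had the surgery without the pulse. The 4 groups are therefore TBI cortex, sham cortex, TBI thalamus and sham thalamus, and the TBI groups stand for such selected rats rather than for injury in general.

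MicroRNAs are cut from hairpin precursors by Drosha and Dicer, and 1 arm of the hairpin is preferentially loaded into Argonaute, where the seed (bases 2 to 8 from the 5′ end) pairs with target mRNAs and lowers their output. The miR-30 family is abundant in brain and most other tissues, its 5p arms are the main guides, and members share the seed and therefore most predicted targets. miR-30a-5p is known to repress Bdnf, which encodes a neurotrophin.

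The mature sequences show how alike the members are, since likeness decides both the shared targets and how safely reads can be told apart. RefSeq (assembly GRCr8) held entries for 3 of the members and for rno-miR-384-5p, which comes from a hairpin outside the family and is known from synaptic plasticity. They are printed 5′ to 3′ with the seed in capitals.
rno-miR-30a-5p: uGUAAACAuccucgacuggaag
rno-miR-30e-5p: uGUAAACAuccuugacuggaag
rno-miR-30c-5p: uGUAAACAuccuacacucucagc
rno-miR-384-5p: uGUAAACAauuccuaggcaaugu
The other members, rno-miR-30b-5p and rno-miR-30d-5p, had no entry, so how safely their reads can be told apart was not checked. miR-30e-5p differed from miR-30a-5p by the single substitution C13U (miR-30a base, position from the 5′ end, miR-30e base), so reads of these members may have been divided with error by the authors' counting. miR-30c-5p shared the first 12 bases with miR-30a-5p and miR-384-5p the first 8. These were the only 4 of 693 mature names in the RefSeq table that carried the seed, and all 4 were in the count tables.

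By RefSeq, the 6 miR-30 genes lie in 3 neighbouring pairs with no other annotated gene wholly between the partners. Mir30c1 and Mir30e lie 2.91 kb apart within the span of Nfyc, a subunit gene of the transcription factor NF-Y. Mir30b and Mir30d lie 3.72 kb apart within the span of 1 long non-coding RNA, LOC102551574. Mir30a and Mir30c2 lie 19.7 kb apart. Mir30c2 lies within the spans of a pseudogene, Rbx1-ps1, and a long non-coding RNA, LOC134480562, neither of which spans Mir30a. Mir30c1 and Mir30c2 give the same 5p arm, so miR-30c-5p is the product of both hairpins and its reads cannot be assigned to either.

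Libraries held 744564 to 4069284 miRNA reads in cortex and 523298 to 4139901 in thalamus, and 5 of the 24 held under 1000000 (sham rats 50 and 55 and TBI rat 56 in cortex, sham rat 55 and TBI rat 56 in thalamus). The thalamus library of sham rat 55, the shallowest, stood apart in the makeup of the family. There miR-30d-5p took 60.2% of the reads of the 5 members, against at most 43.1% in the other sham thalamus libraries, and miR-30c-5p 6.11% against 18.0% to 26.5%. Thalamic fold changes, shares and spreads of the members that it moved are therefore also given without it. Fewest reads of a member in any library were 71, for miR-30b-5p in this library, while the other members had at least 2400.

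Together the members took 7.75% ± 0.758 (SD, n = 6) of miRNA reads in sham cortex, 8.02% ± 0.965 in TBI cortex, 8.18% ± 1.08 in sham thalamus and 7.77% ± 0.924 in TBI thalamus. miR-30d-5p was the most abundant member in all 24 libraries, with a median rank among all miRNAs of 4.5 in sham cortex and 8 in TBI thalamus. miR-30a-5p followed, and miR-30d-5p exceeded it 1.70 to 1.74 times by the group medians. miR-30a-5p exceeded miR-30c-5p in 19 of 24 libraries, with group median ratios of 1.06 to 1.41, so these neighbours in the order overlapped. miR-30c-5p exceeded miR-30e-5p in 23 of 24, the exception being the thalamus of sham rat 55. miR-30b-5p lay far below, with miR-30e-5p exceeding it 10.8 to 36.1 times in single libraries. The 3 members with a RefSeq entry are of nearly equal length (22 or 23 bases). How well each sequence was captured in the library was not measured, so this is an order of reads.

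The first comparison asked whether the members differed between TBI and sham-operated rats in perilesional cortex. By the quasi-likelihood test of edgeR none reached the threshold (adjusted p of 0.05), where 5.66% of the 371 miRNAs tested did. By the sign of the fitted value, 3 members were lower in TBI (miR-30a-5p, miR-30d-5p and miR-30e-5p, the last at 0.0035 on the log2 scale when libraries were scaled by total reads only) and 2 higher (miR-30b-5p and miR-30c-5p). The median log2 fold change was -0.21 over the members and 0.05 over all miRNAs tested. Levels below are TMM-scaled CPM (reads per 1000000 miRNA reads, after trimmed mean of M-values scaling) of the cortex fit.

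**Figure D1:**
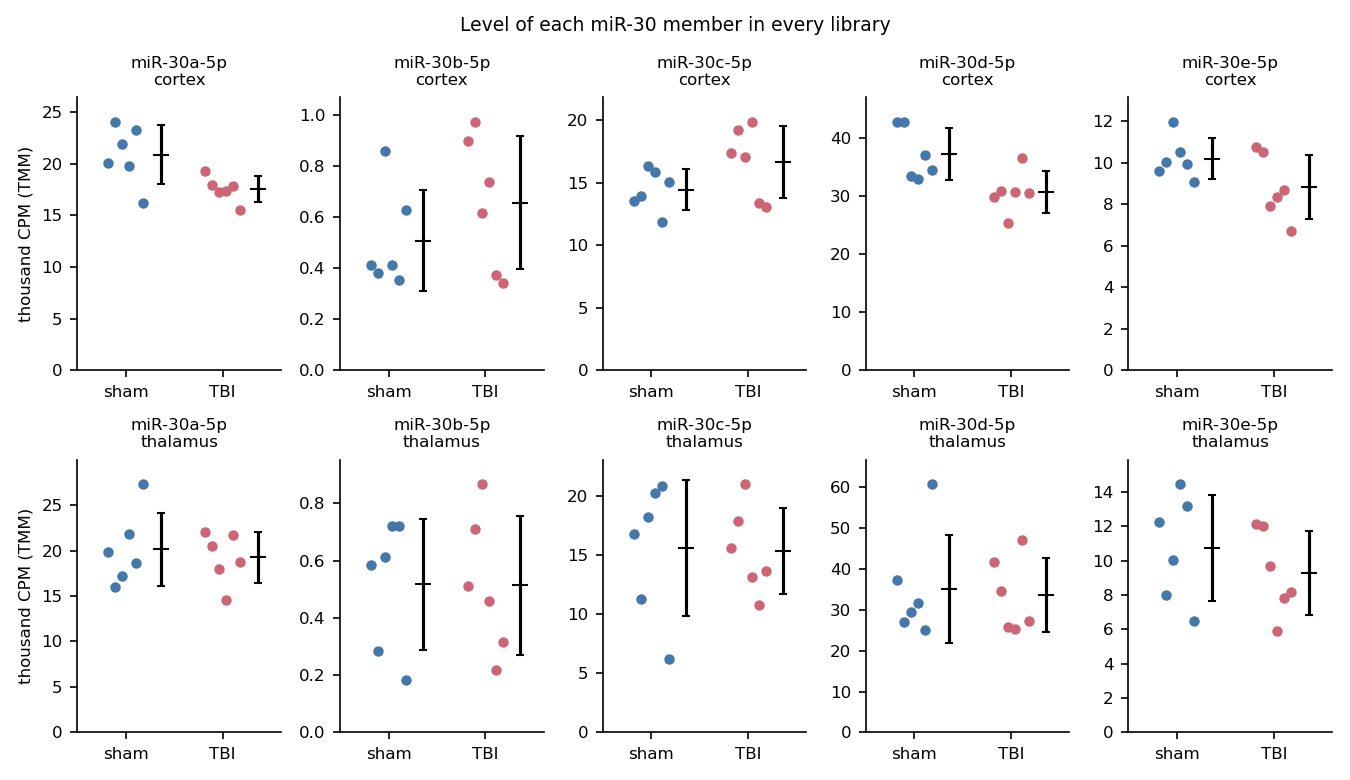
TMM-scaled level (in units of 1000 CPM, scaled within each region, y axes from 0) of each member in every cortex (top) and thalamus (bottom) library, blue for sham and red for TBI rats, with the mean and SD in black (n = 6). In cortex the TBI values of miR-30a-5p and miR-30d-5p lie mostly below the sham values, and in thalamus sham rat 55 has the highest miR-30d-5p value, 60739 CPM.

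miR-30d-5p ran from 32958 to 42674 CPM in sham cortex (median 35776) and from 25381 to 36574 in TBI cortex (median 30555). Of the TBI rats, 5 lay below every sham rat, and TBI rat 56 was the exception. The log2 fold change was -0.28 (SE 0.11, 95% interval -0.52 to -0.05), with an unadjusted p of 0.022 and an adjusted p of 0.146 in edgeR. Without the cortex libraries under 1000000 reads it was -0.46 (adjusted p of 0.0629 in edgeR), and miR-30a-5p was then at -0.39 (adjusted p of 0.0795).

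miR-30a-5p ran from 16197 to 24039.9 CPM in sham cortex (median 20990) and from 15527 to 19277 in TBI cortex (median 17644). All TBI rats lay below the sham median, but sham rat 55 was lower than 5 of them. Its log2 fold change was -0.25 (SE 0.11, 95% interval -0.48 to -0.02), unadjusted p of 0.0357 and adjusted p of 0.194 in edgeR. Without sham rat 55 it was -0.38 and passed (adjusted p of 0.049 in edgeR), in a fit where 7.92% of miRNAs did, while over the other leave-outs of 1 rat it did not. miR-30a-5p and miR-30d-5p were thus the 2 members with an unadjusted p under 0.05, as were 21.8% of all miRNAs tested. By total reads alone miR-30a-5p was at -0.04 (unadjusted p of 0.767 in edgeR) and miR-30d-5p at -0.07 (0.475). miR-30c-5p was then at 0.41 (unadjusted p of 0.0212, adjusted p of 0.108 in edgeR). In that fit the median log2 fold change of the 371 miRNAs tested was 0.25, and 39 of them passed after adjustment. Relative to that median miR-30a-5p and miR-30d-5p were again lower and miR-30c-5p higher. The exact permutation tests of miR-30a-5p and miR-30d-5p (two-sided, all 924 divisions of the 12 rats, unadjusted) gave p = 0.0325 and p = 0.0152. These tests were run on the members only.

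miR-30e-5p, from the hairpin beside miR-30c-1, ran from 9067 to 11956 CPM in sham cortex (median 9989) and from 6731 to 10774 in TBI cortex (median 8511). TBI rats 22 and 24 lay within the sham range and the other 4 below it. The log2 fold change was -0.21 (SE 0.13, 95% interval -0.48 to 0.06, adjusted p of 0.31 in edgeR).

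miR-30c-5p ran from 11835 to 16322 CPM in sham cortex (median 14498) and from 13033 to 19820.3 in TBI cortex (median 17198). Of the TBI rats, 4 lay above every sham rat, and TBI rats 56 and 63 lay below the sham median. The log2 fold change was 0.21 (SE 0.13, 95% interval -0.07 to 0.48, adjusted p of 0.318 in edgeR).

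miR-30b-5p, the rarest member, ran from 352 to 859 CPM in sham cortex (median 412) and from 343 to 971 in TBI cortex (median 676). The groups overlapped widely, and its log2 fold change of 0.37 had the widest interval of the members (SE 0.29, 95% interval -0.24 to 0.98, adjusted p of 0.428 in edgeR). No member separated the 6 TBI from the 6 sham rats, as 2.70% of the miRNAs tested in cortex did.

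The summed level of the 5 members was 83209 ± 5424 CPM in sham and 74308 ± 5634 CPM in TBI cortex (SD, n = 6), a log2 ratio of the means of -0.16, which turned to 0.05 when libraries were scaled by their total reads only. That scaling also moved the cortical median over every miRNA tested by 0.20 on the log2 scale. Some marker miRNAs moved with these groups. Of the 5 neuron markers 2 fell in TBI cortex and none was at 0. Their sum ran from 331447 to 611995 CPM in sham and from 251958 to 334229 CPM in TBI cortex, on the scale of all 24 libraries. No oligodendrocyte, microglia and leukocyte, inflammation-induced, endothelium or red cell marker passed between TBI and sham cortex. Of the 2 choroid plexus markers tested 1 rose in TBI cortex, with summed levels of 972 to 1925 CPM in sham and 953 to 2227 CPM in TBI. Their part in the member values was not tested, and in bulk tissue fewer cells of a type cannot be told from less RNA per cell.

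The makeup of the family, which does not depend on the scaling, is a description without a test. In cortex miR-30c-5p made up 17.4% ± 2.58 of the reads of the 5 members in sham and 22.4% ± 3.26 in TBI (SD, n = 6), and 4 of 6 TBI rats lay above every sham rat. miR-30d-5p made up 44.7% ± 3.59 and 41.3% ± 4.42. The miR-30a-5p share was 25.0% ± 2.40 against 23.7% ± 1.12, that of miR-30e-5p 12.3% ± 1.22 against 11.8% ± 1.41 and that of miR-30b-5p 0.615% ± 0.249 against 0.872% ± 0.310. The cortical differences in share thus lay mainly in miR-30c-5p, with 4.94 percentage points, and miR-30d-5p, with -3.39.

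**Figure D2:**
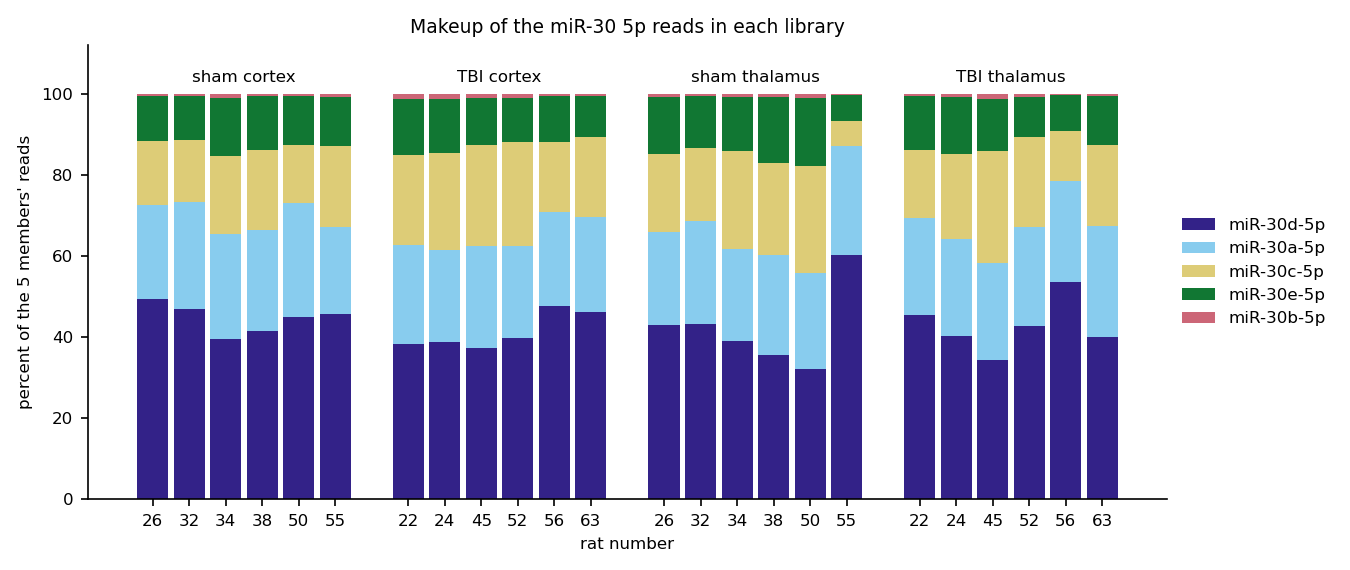
Share of each member (percent, stacked to 100) in the reads of the 5 members, 1 bar per library, labelled by rat number. miR-30d-5p is the largest share in every bar, and sham rat 55 in thalamus has the largest miR-30d-5p share (60.2%) and the smallest miR-30c-5p share (6.11%).

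In ipsilateral thalamus the question was the same, and again no member passed (0.513% of the 390 miRNAs tested did), with 0 members at an unadjusted p under 0.05 in edgeR, where 5.64% of all miRNAs were. All log2 fold changes lay between -0.21 (miR-30e-5p) and -0.01 (miR-30b-5p), against a median of -0.03 over all miRNAs. The signs of the smallest values depended on the scaling: miR-30b-5p and miR-30c-5p were above 0 in DESeq2 (0.03 and 0.02). Among sham rats the SD of 5 of 5 members was larger in thalamus than in cortex, but of only 3 of 5 without rat 55, when it was smaller for miR-30a-5p (2276 against 2850 CPM) and miR-30b-5p (179 against 198 CPM).

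miR-30d-5p ran from 25122 to 60739 CPM in sham thalamus (median 30522) and from 25438 to 47071 in TBI thalamus (median 30929), with the highest values in sham rat 55 and TBI rat 56, the shallowest libraries. The log2 fold change was -0.06 (95% interval -0.57 to 0.44, adjusted p of 0.982 in edgeR), and 0.23 without sham rat 55 (adjusted p of 0.61 in edgeR).

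miR-30a-5p ran from 15962 to 27264 CPM in sham (median 19241) and from 14591 to 22065 in TBI thalamus (median 19613). The groups overlapped from 15962 to 22065 CPM, with sham rat 55 above every TBI rat and TBI rat 52 below every sham rat. The log2 fold change was -0.06 (95% interval -0.42 to 0.29), and 0.11 without sham rat 55. Without that rat the values of the other members were -0.10 for miR-30b-5p, -0.11 for miR-30c-5p and -0.25 for miR-30e-5p.

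miR-30c-5p ran from 6160 to 20789.5 CPM in sham (median 17499) and from 10754 to 20945 in TBI thalamus (median 14623). Its log2 fold change was -0.02 (95% interval -0.60 to 0.55). The lowest values were those of sham rat 55 and TBI rat 56.

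miR-30b-5p ran from 182 to 721 CPM in sham (median 599) and from 218 to 866 in TBI thalamus (median 486), and the same rats were lowest in their groups. Its log2 fold change of -0.01 had an interval of -0.81 to 0.79, that is, ratios of TBI to sham from 0.570 to 1.73. For miR-30e-5p the range was 6499 to 14443 CPM in sham (median 11137) and 5884 to 12128 in TBI thalamus (median 8918), and the log2 fold change -0.21 (95% interval -0.70 to 0.29, adjusted p of 0.827 in edgeR). No member separated the groups, as 1.28% of the miRNAs tested in thalamus did.

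The summed level was 82161 ± 13130.3 CPM in sham and 78066 ± 12639 CPM in TBI thalamus (SD, n = 6), a log2 ratio of -0.07 that was 0.06 without sham rat 55. Shares in thalamus differed between TBI and sham by -1.48 (miR-30e-5p) to 0.609 (miR-30d-5p) percentage points with all rats. These values turned on single rats. Without sham rat 55 the difference was 4.22 points for miR-30d-5p, -2.84 for miR-30e-5p and 0.844 for miR-30a-5p (0.323 with it). It was then -2.16 for miR-30c-5p (0.516 with it) and -0.064 for miR-30b-5p (0.028 with it), so these 2 changed sign. Without TBI rat 56 it was -1.58 for miR-30d-5p and 2.06 for miR-30c-5p. For miR-30a-5p it was -0.22 without TBI rat 63, and for miR-30b-5p -0.068 without TBI rat 45. For miR-30e-5p it stayed below 0 whichever rat was left out. Among sham rats the SD of the share was larger in thalamus than in cortex for 4 members, the exception being miR-30a-5p (1.65 against 2.40 points), and for 3 without rat 55. For miR-30c-5p the SD was 7.24 points in sham thalamus (3.46 without sham rat 55) against 2.58 in sham cortex. Both inflammation-induced marker miRNAs of the fixed list rose in TBI thalamus, from summed levels of 264 to 372 CPM in sham to 375 to 848 CPM in TBI, and their part in the member values was not tested.

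**Figure D3:**
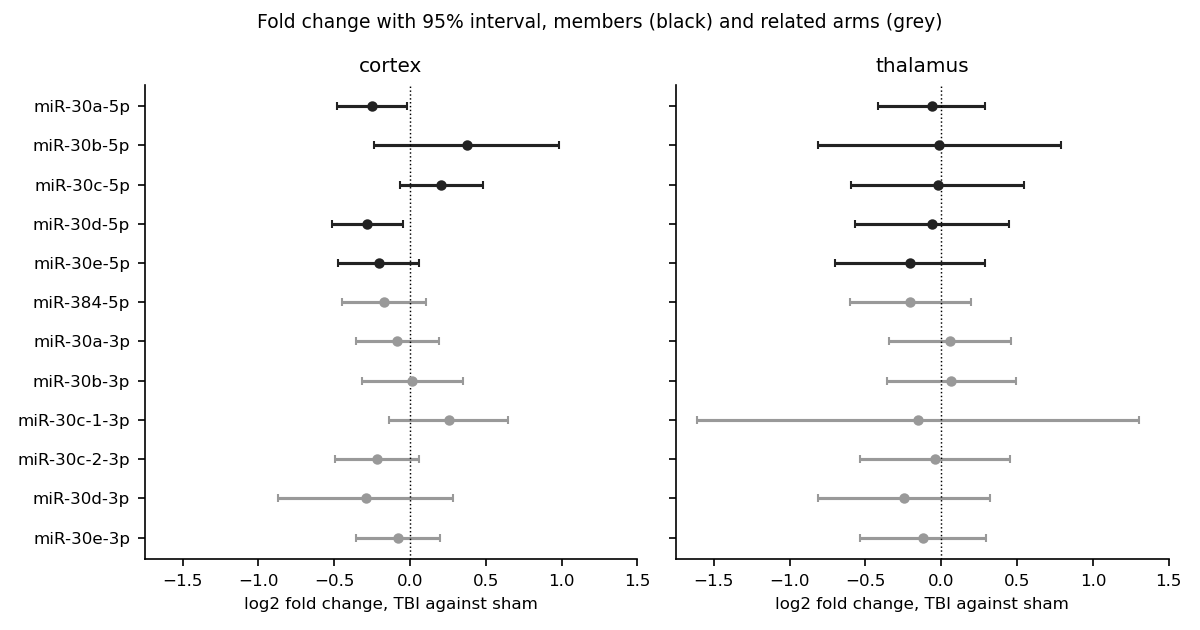
Log2 fold change of TBI against sham with its 95% interval (edgeR) for the 5 members (black) and for miR-384-5p and the 3p arms (grey), in cortex and thalamus. In cortex the intervals of miR-30a-5p and miR-30d-5p leave out 0 before adjustment, and in thalamus every interval spans 0.

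Whether the injury effect differed between the regions was asked of an interaction term fitted to the 24 libraries. No member passed (0% of 407 miRNAs did, and 3.93% had an unadjusted p under 0.05, none of them a member). The differences ran from -0.35 for miR-30b-5p to 0.26 for miR-30d-5p on the log2 scale (thalamus effect minus cortex effect), with a 95% interval of -0.25 to 0.77 for miR-30d-5p. Without sham rat 55 the difference was 0.37 for miR-30a-5p and 0.48 for miR-30d-5p (adjusted p of 0.415 in edgeR for both). With the rat as a block, again 0% of miRNAs passed. In DESeq2 no member passed in cortex (10.8% of miRNAs did), thalamus (0.775%) or the interaction (0%).

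The levels were then compared between regions, on the scale of the fit of all 24 libraries, where values differ somewhat from those above. In sham rats all 5 members had a lower fitted level in thalamus than in cortex under TMM, whereas with scaling by library size only 4 had a higher one (all but miR-30d-5p, at -0.02). The TMM fit gave a median log2 difference of -0.29 over the members against 0.04 over all miRNAs, and 1 member, miR-30a-5p, passed, where 25.1% of the 407 miRNAs tested did.

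miR-30a-5p ran from 18030 to 26388 CPM in sham cortex (median 24529) and from 14622 to 23779 in sham thalamus (median 17437), and was lower in thalamus in 5 of 6 rats. The log2 difference was -0.38 (SE 0.13, 95% interval -0.65 to -0.11, adjusted p of 0.0326 in edgeR). With the rat as a block, which pairs the regions of 1 animal although the deviations of both libraries ran together in only 2 of 6 sham rats (r over 0.1, against 6 of 6 TBI rats), it was -0.38 and no longer passed (adjusted p of 0.0531 in edgeR). It was 0.03 with scaling by library size only, which moved the median of all miRNAs by 0.42, to 0.46, so relative to that median miR-30a-5p was again lower. Leaving out 1 rat at a time, of either group since all share the fit, it passed in 3 of 12 fits (without sham rat 55, TBI rat 22 or TBI rat 56), with log2 differences of -0.52 to -0.26 and adjusted p from 0.00162 to 0.24 in edgeR, so the call rested on the choice of libraries and scaling.

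miR-30d-5p ran from 38395 to 46827 CPM in sham cortex (median 40619) and from 22274 to 52975 in sham thalamus (median 27990.3). All sham thalamus values but that of rat 55 were below every cortex value. The log2 difference was -0.40 (SE 0.18, 95% interval -0.76 to -0.04, adjusted p of 0.102 in edgeR). With the rat as a block it was -0.46 and passed (adjusted p of 0.031 in edgeR), in a fit where 31.4% of miRNAs did.

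The call for both members turned on few libraries. Without sham rat 55 both passed (log2 difference -0.52, adjusted p of 0.00162 for miR-30a-5p, and -0.62, adjusted p of 0.00353 for miR-30d-5p, edgeR), with 26.5% of miRNAs passing. Without the 5 libraries under 1000000 reads both passed as well (26.1% of miRNAs did). These members had unadjusted p-values under 0.05 in the fit of all libraries, as did 34.9% of miRNAs. In DESeq2 neither passed, where 28.0% of miRNAs did. The exact sign-flip test over the 6 rats gave p = 0.125 for each member (two-sided, smallest possible 0.0313).

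miR-30c-5p, miR-30b-5p and miR-30e-5p did not pass in sham rats. Their log2 differences were -0.21, -0.29 and -0.25, with 95% intervals of -0.66 to 0.25, -1.04 to 0.46 and -0.64 to 0.15, and without sham rat 55 they were -0.02, -0.04 and -0.15. No member was lower in thalamus in every sham rat, as 13.8% of miRNAs were.

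**Figure D4:**
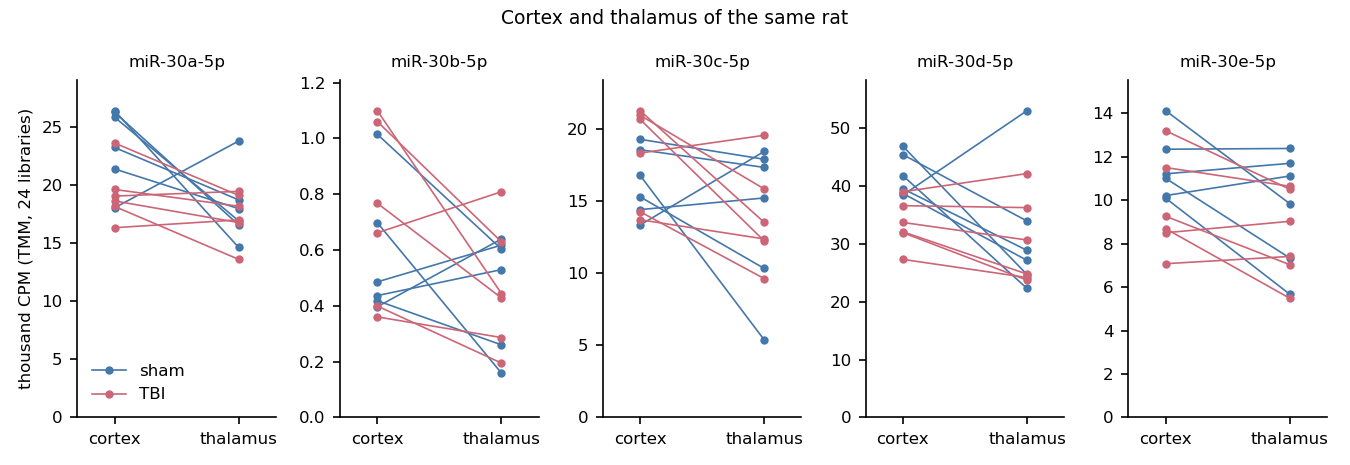
TMM-scaled level (in units of 1000 CPM, scaled over all 24 libraries, y axes from 0) of each member in cortex and thalamus, with a line for each of the 6 sham (blue) and 6 TBI (red) rats. For miR-30a-5p and miR-30d-5p, 5 of the 6 sham lines fall from cortex to thalamus.

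In TBI rats no member passed between the regions (27.3% of miRNAs did, 32.2% with the rat as a block and 29.0% in DESeq2), and none had an unadjusted p under 0.05, as 34.4% of miRNAs had. All 5 log2 differences were below 0 under TMM (miR-30a-5p and miR-30d-5p were at 0.01 with library size only), from -0.64 for miR-30b-5p (95% interval -1.38 to 0.11) to -0.14 for miR-30d-5p (-0.50 to 0.22). No member was lower in thalamus in every TBI rat (18.4% of miRNAs were), although miR-30b-5p, miR-30c-5p and miR-30d-5p were in 5 of 6.

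Marker miRNAs of other cell types also differed between the regions of sham rats. Of the 5 neuron markers 4 were lower in thalamus, where their sum ran from 169389 to 326531 CPM against 331447 to 611995 CPM in cortex. Both oligodendrocyte markers were higher, at 9304 to 17296 CPM against 3423 to 4166 CPM. Sham rat 55 had the highest thalamic sum in both lists. None of the microglia and leukocyte (4), inflammation-induced (2), endothelium (2), red cell (2) or choroid plexus (2) markers tested passed between the regions of sham rats. The part of cell makeup in the member values was not tested.

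The covariation of the members across libraries is given as a description. After the mean of each group was taken off, miR-30b-5p and miR-30c-5p deviated together (Pearson r = 0.91 over 24 libraries, 0.93 without the thalamus of sham rat 55). Their genes are not neighbours. miR-30e-5p went with miR-30c-5p (r = 0.77) and miR-30b-5p (0.75). miR-30a-5p went with miR-30d-5p (r = 0.68, and 0.54 without that library) and with miR-30e-5p (0.29, and 0.73 without it), whereas miR-30d-5p ran against miR-30c-5p (r = -0.64, and -0.31 without that library). For the genomic partners miR-30b-5p and miR-30d-5p r was -0.50, and -0.28 without that library. Library depth moved with these deviations: r with the log2 number of reads was 0.76 for miR-30c-5p, 0.66 for miR-30b-5p, 0.56 for miR-30e-5p, -0.07 for miR-30a-5p and -0.45 for miR-30d-5p. These values describe libraries that share rats, scaling and depth, and the part of depth was not tested. Nor was the part of reads divided with error between members of like sequence, which may include miR-30b-5p and miR-30d-5p.

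**Figure D5:**
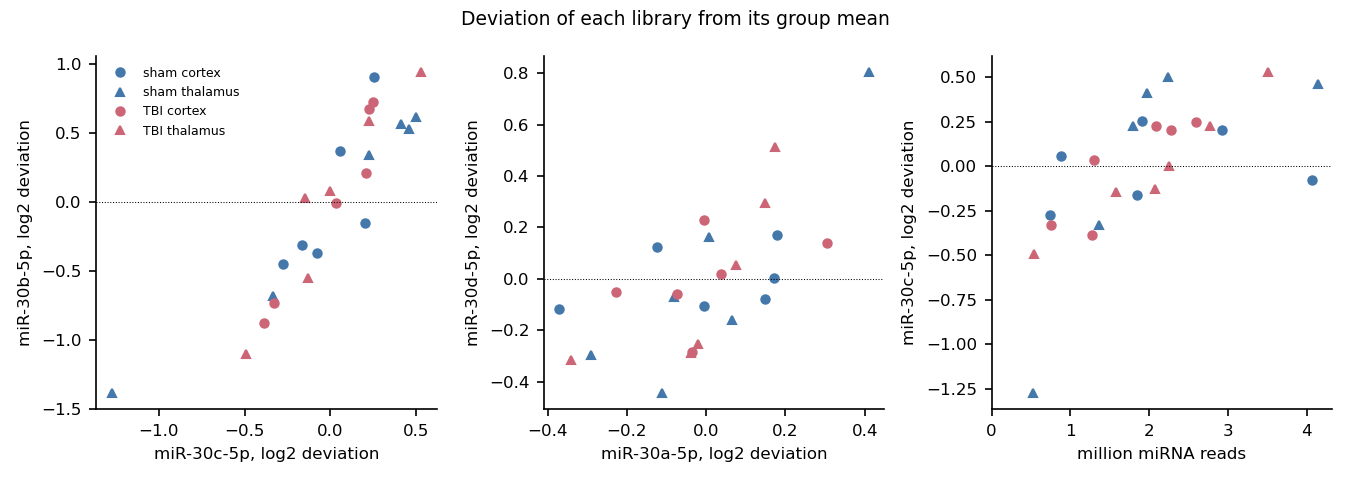
Deviation of each of the 24 libraries from its group mean (log2 scale), for miR-30b-5p against miR-30c-5p (left), miR-30d-5p against miR-30a-5p (middle) and miR-30c-5p against the number of miRNA reads of the library (right, in units of 1000000 reads). Points rise together in the left panel (r = 0.91), and the shallowest library has the lowest miR-30c-5p deviation.

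The passenger 3p arms of the hairpins were far rarer. In sham cortex the reads of miR-30d-5p exceeded those of miR-30d-3p by a median of 2383 times, with only 7 to 63 miR-30d-3p reads per library. The 5p to 3p ratio was 52.2 for miR-30c, 45.4 for miR-30a, 15.8 for miR-30e and 13.4 for miR-30b. miR-30e-3p was the most abundant 3p arm (634 ± 83.9 CPM in sham cortex), followed by miR-30a-3p (462 ± 32.1 CPM). The 3p arm of the second miR-30c hairpin, miR-30c-2-3p, exceeded miR-30c-1-3p in every library, 12.4 times by summed reads in sham cortex and 8.71 times in TBI cortex. In the thalamus of sham rat 55, where miR-30c-5p was low, miR-30c-2-3p was highest of its group, at 534 CPM against 187 to 285 CPM in the other sham rats, and the ratio of 5p to 3p reads of miR-30c was 10.8.

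None of the 3p arms (6 rows) passed between TBI and sham in either region or between regions. In cortex their log2 fold changes ran from -0.29 (miR-30d-3p, 95% interval -0.87 to 0.28) to 0.26 (miR-30c-1-3p, -0.14 to 0.65), with 2 higher and 4 lower, and in thalamus from -0.24 to 0.07. miR-384-5p, which shares the seed, ran from 1021 to 1231 CPM in sham cortex (median 1088) and from 804 to 1201 in TBI cortex (median 955), with a log2 fold change of -0.17 (95% interval -0.45 to 0.10, adjusted p of 0.425 in edgeR). In thalamus the log2 fold change of miR-384-5p was -0.20 (95% interval -0.60 to 0.19).

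The miRNAs whose level was most like the summed members over the 24 libraries were miR-22-3p (Pearson r = 0.92), miR-1843-5p (0.89), miR-212-5p (0.84), miR-598-3p (0.81) and miR-127-5p (0.79), out of 402 other miRNAs whose 95th percentile was 0.70. With the group means taken off, the nearest were miR-22-3p (0.83), miR-344b-2-3p (0.83) and miR-1843-5p (0.82). On that scale miR-127-5p was at 0.82, miR-212-5p at 0.70 and miR-598-3p at 0.62, where the 95th percentile was 0.65. Their log2 fold changes in cortex were -0.24 for miR-22-3p (adjusted p of 0.205 in edgeR), -0.30 for miR-1843-5p (0.18), -0.30 for miR-598-3p (0.205), -0.34 for miR-127-5p (0.235) and -0.19 for miR-344b-2-3p (0.461), and none of these passed. Of the named miRNAs only miR-212-5p, of the activity-regulated miR-132 and miR-212 cluster, fell in TBI cortex (-0.96, adjusted p of 0.00635 in edgeR). In the study's digital PCR of the same cortex samples the difference in miR-212-5p was not significant. The likeness depended on the scaling, since with library size only 1 of the 5 stayed among the nearest. None of the 3p arms was among them: r with the family sum ran from -0.19 for miR-30c-1-3p to 0.53 for miR-30d-3p.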

How the data were processed

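Small RNA libraries were made by the authors with a NEBNext kit and sequenced on an Illumina NextSeq instrument. Per the labels, reads were checked with FastQC, and by the study's methods they were mapped to the rat genome RGSC3.4 and annotated with miRBase. The aligner and counter are not given in the sources used here. The authors deposited raw read counts per miRNA, 1 table per region, and the 24 columns were matched to samples by name. Only the 728 miRNAs were used, and the 444 tRNA features of the cortex table were left out.

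The members, lists and tests were chosen with earlier results of these data known. Counts were tested with edgeR 4.0.16 (R 4.3.3): filterByExpr, TMM scaling, quasi-likelihood fits, Benjamini-Hochberg adjustment over all miRNAs tested and a threshold of 0.05. Each region was fitted on its own for TBI against sham, and all 24 libraries together for the interaction and the regions. SE and 95% intervals were derived from the p-value and the total degrees of freedom of the quasi-likelihood test. Exact tests, two-sided and unadjusted, used log2(CPM + 1) (scipy 1.17.1). DESeq2 1.42.0, other scalings and filters, a rat block and leaving out each rat were alternatives, and leaving out libraries under 1000000 reads and robust dispersions were added after the data were seen. The fits were tested on simulated data. Named were the members, the 3p arms of their hairpins, miRNAs with the same seed, and those most like the summed members (5 over all libraries, 3 with group means off).

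The rat number pairs the regions of an animal: deviations of its libraries correlated with r from 0.30 to 0.64 in the 6 TBI rats, but from -0.18 to 0.49 in the 6 sham rats, of which 4 were below 0. Libraries of a group differed beyond sampling noise (chi-square per degree of freedom of at least 31.4 over 60 pairs).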

Additional observations from a re-analysis of the deposited data

Results flagged for a closer look

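Among 72 groups of 6 values examined, 5 held a library far from the rest by Dixon's criterion, and chance alone marks about 1 in 20 groups. In sham thalamus the library of rat 55 had 60739 CPM of miR-30d-5p, against 25122 to 37405 CPM in the others. The same library had 534 CPM of miR-30c-2-3p (187 to 285 CPM in the others). It also had 28.2 CPM of miR-30d-3p (15.1 to 20.0 CPM in the others), a value that rests on 11 reads. In TBI thalamus the library of rat 56 had 378 CPM of miR-30c-2-3p, against 257 to 293 CPM. These are the libraries with the fewest reads in their groups, 523298 and 538194. The flagged levels are TMM-scaled within thalamus, and Dixon's criterion was not applied to levels scaled by total reads only. The part of depth and of scaling in these flags was not tested. In TBI thalamus miR-30a-5p took 27.5% of the reads of the 5 members in rat 63, against 23.8% to 24.8% in the others.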

How the results depend on the processing

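Libraries under 1000000 reads, 5 of 24, limit the precision, among the members most for miR-30b-5p with 71 to 3324 reads. Of the 3p arms, miR-30d-3p held only 4 to 95 reads, miR-30c-1-3p 10 to 109 and miR-30b-3p 11 to 125. No paired analysis was possible for TBI against sham because no rat is in both groups. With the rat as replicate block, miR-30a-5p between the regions of sham rats had an adjusted p of 0.0531 and miR-30d-5p one of 0.031 in edgeR, and the block changed no other call of a member. Of 1091 values recomputed, 962 kept direction, side of the threshold and size, and the cause of the changes was not tested.

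In cortex 2 members had an unadjusted p under 0.05 in the exact test. That test was run on the members only, so it has no share over all miRNAs. In edgeR 21.8% of the miRNAs tested in cortex had an unadjusted p under 0.05. After adjustment 0 to 1 members passed when 1 rat was left out (1 without sham rat 55). Between the regions of sham rats 0 members passed with library size only, RLE factors, 4 reference miRNAs, no filter, a mean count of at least 50, DESeq2 and the exact test, 2 without libraries under 1000000 reads, and 0 to 2 when 1 rat was left out (2 without sham rat 55). The log2 ratio of the summed level in cortex was -0.31 without libraries under 1000000 reads and 0.049 with library size only. Of the 5 nearest miRNAs, 1 stayed with library size only and 2 with the reference miRNAs. Over all miRNAs, calls in cortex were 21 against 40 in DESeq2, 39 with library size only, 0 with the reference miRNAs, 5 in the fit of all 24 libraries and 4 to 30 without 1 rat. Between the regions of sham rats they were 102 against 168 with library size only. Library size only moved the median log2 value of all miRNAs by 0.20 in cortex, -0.27 in the interaction, 0.42 between sham regions and 0.18 between TBI regions, and the reference miRNAs by -0.10 in thalamus and -0.17 in the interaction.

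Signs turned as follows on the log2 scale. With library size only: miR-30a-5p -0.020 (interaction), 0.034 (sham regions) and 0.014 (TBI regions), miR-30b-5p 0.16, miR-30c-5p 0.26 and miR-30e-5p 0.21 (sham regions), miR-30d-5p 0.012 (TBI regions), miR-30e-5p 0.0035 (cortex) and -0.25 (interaction), miR-30a-3p 0.13, miR-30e-3p 0.14 and miR-384-5p 0.043 (cortex), and miR-30c-2-3p 0.0045 (thalamus). With RLE factors: miR-30b-5p 0.027, miR-30c-5p 0.015 and miR-30c-2-3p 0.0024 (thalamus), miR-30b-3p -0.018 (cortex). With no filter: miR-30b-5p 0.00045 and miR-30c-2-3p 0.0058 (thalamus), miR-30b-3p -0.0069 (cortex). With DESeq2: miR-30b-5p 0.027, miR-30c-5p 0.015 and miR-30c-2-3p 0.0068 (thalamus), miR-30b-3p -0.032 (cortex). With the reference miRNAs: miR-30e-5p -0.24 (interaction), miR-30a-3p -0.0077 and miR-30b-3p -0.049 (thalamus). Without libraries under 1000000 reads: miR-30a-5p 0.0093, miR-30d-5p 0.047, miR-30c-2-3p 0.11 and miR-30e-3p 0.016 (thalamus), miR-30e-5p -0.015 (interaction), miR-30b-3p -0.17 (cortex). miR-30b-3p in cortex was -0.0025 with a mean count of at least 50 and -0.029 in the fit of all 24 libraries.

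When 1 rat was left out, values in thalamus ran from -0.10 to 0.11 for miR-30a-5p, -0.17 to 0.23 for miR-30b-5p, -0.11 to 0.16 for miR-30c-5p, -0.12 to 0.23 for miR-30d-5p, -0.00062 to 0.21 for miR-30b-3p, -0.15 to 0.27 for miR-30c-2-3p and -0.16 to 0.10 for miR-30e-3p. They ran from -0.11 to 0.070 for miR-30b-3p in cortex, -0.064 to 0.13 for miR-30e-5p in the interaction and -0.21 to 0.020 for miR-30d-5p between TBI regions.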
